A study of Arabidopsis thaliana with 11 samples.

Results

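Leaf samples 3 and 4 of wild-type Arabidopsis thaliana were compared with leaf samples 1 and 2 across all loci that the deposited tables count. The comparison used 4 of the 11 libraries in the series, chosen by their labels: the libraries of leaf 1 and leaf 2 read on a HiSeq2000, and the only libraries of leaf 3 and leaf 4, read on the older GA II of the same maker. The labels describe all 4 as untreated wild-type leaf, from plants kept in greenhouse soil and harvested at stage 6.0, when the first flower opens, and all 4 as polyA-selected RNA sized at 260 and read from both ends. No label names the ecotype, the leaf position, the day or hour of harvest, or whether leaf 3 and 4 were grown with leaf 1 and 2, so sequencer, plants and harvest cannot be told apart in any difference below. The labels also do not say that leaves with different numbers came from separate plants, so the p-values measure only how far these samples spread, which may be technical.

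A rosette leaf passes from a phase of cell division, which draws on DNA replication, mitosis and the making of ribosomes, through expansion and the build-up of chloroplasts, to a mature state and then to senescence, in which chlorophyll is taken apart and nutrients are exported. On top of this course lie daily rhythms, since the circadian clock switches a large share of leaf transcripts between morning and evening, and responses to light quality, sugar, water, temperature and pathogens. In bulk leaf RNA, fewer cells of a type and less RNA per cell cannot be told apart.

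The 4 libraries held between 35302492 and 192817049 counted read pairs, with leaf 1 and 2 the deeper pair, and CPM below means counts per 1000000 pairs after edgeR's TMM scaling. Differences are log2 values, leaf 3 and 4 minus leaf 1 and 2, each with a standard error (SE), and adjusted p-values come from the quasi-likelihood test of edgeR, adjusted by the Benjamini-Hochberg method over 20528 loci, 2 libraries against 2. Intervals of count ratios are exact at 95% and cover counting error only. A locus is said to be higher or lower, or to have risen or fallen, where that adjusted p was under 0.05. By this rule 3243 loci were higher in leaf 3 and 4, which is 15.8% of those tested, and 3833 were lower, which is 18.7%. Of these, 2686 and 2943 differed by more than 2-fold. These shares are the background against which each count of list members below has to be read. The median difference over all loci was -0.06.

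Leaf 3 and 4 were much more alike than leaf 1 and 2. The biological coefficient of variation, the relative spread that remains after counting noise, was 10.8% between leaf 3 and 4, 41.3% between leaf 1 and 2, and 61.6 to 70.8% between the members of the 2 groups. For the multiplexed runs of leaf 1 and of leaf 2 against their HiSeq2000 runs it was 0.988%, about the lowest that this estimate returns, and for a further multiplexed library labelled leaf 1b against leaf 1 it was 4.65%. In 3180 of the 3243 higher loci and 3607 of the 3833 lower loci, the gap between the nearest libraries of the 2 groups was wider than the gap between leaf 1 and leaf 2. The test calls loci whose groups differ widely for their spread, so these counts follow largely from the calls and do not support them. The calls rest on the closeness of leaf 3 and 4. Without leaf 1 the counts were 6872 higher and 7332 lower, and without leaf 2 they were 6394 and 6759. Without leaf 3 or without leaf 4 no locus was called, with lowest adjusted p-values of 0.0526 and 0.0541 and with 5287 and 4934 loci at an unadjusted p under 0.05, since the spread then came from leaf 1 and 2 alone. When 2 flower bud libraries lent their spread to the fit, an alternative chosen after seeing the data, 453 higher and 486 lower loci were called without leaf 3, and 261 and 299 without leaf 4. This limit holds for every call below and is not repeated. Scaling by library size alone gave 2431 higher and 5115 lower loci, with the median of all loci at -0.31. The share of pairs from plastid-encoded loci was 0.0277% and 0.0502% in leaf 1 and 2 and 0.0898% and 0.113% in leaf 3 and 4, and its part in the differences was not tested.

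**Figure D1:**
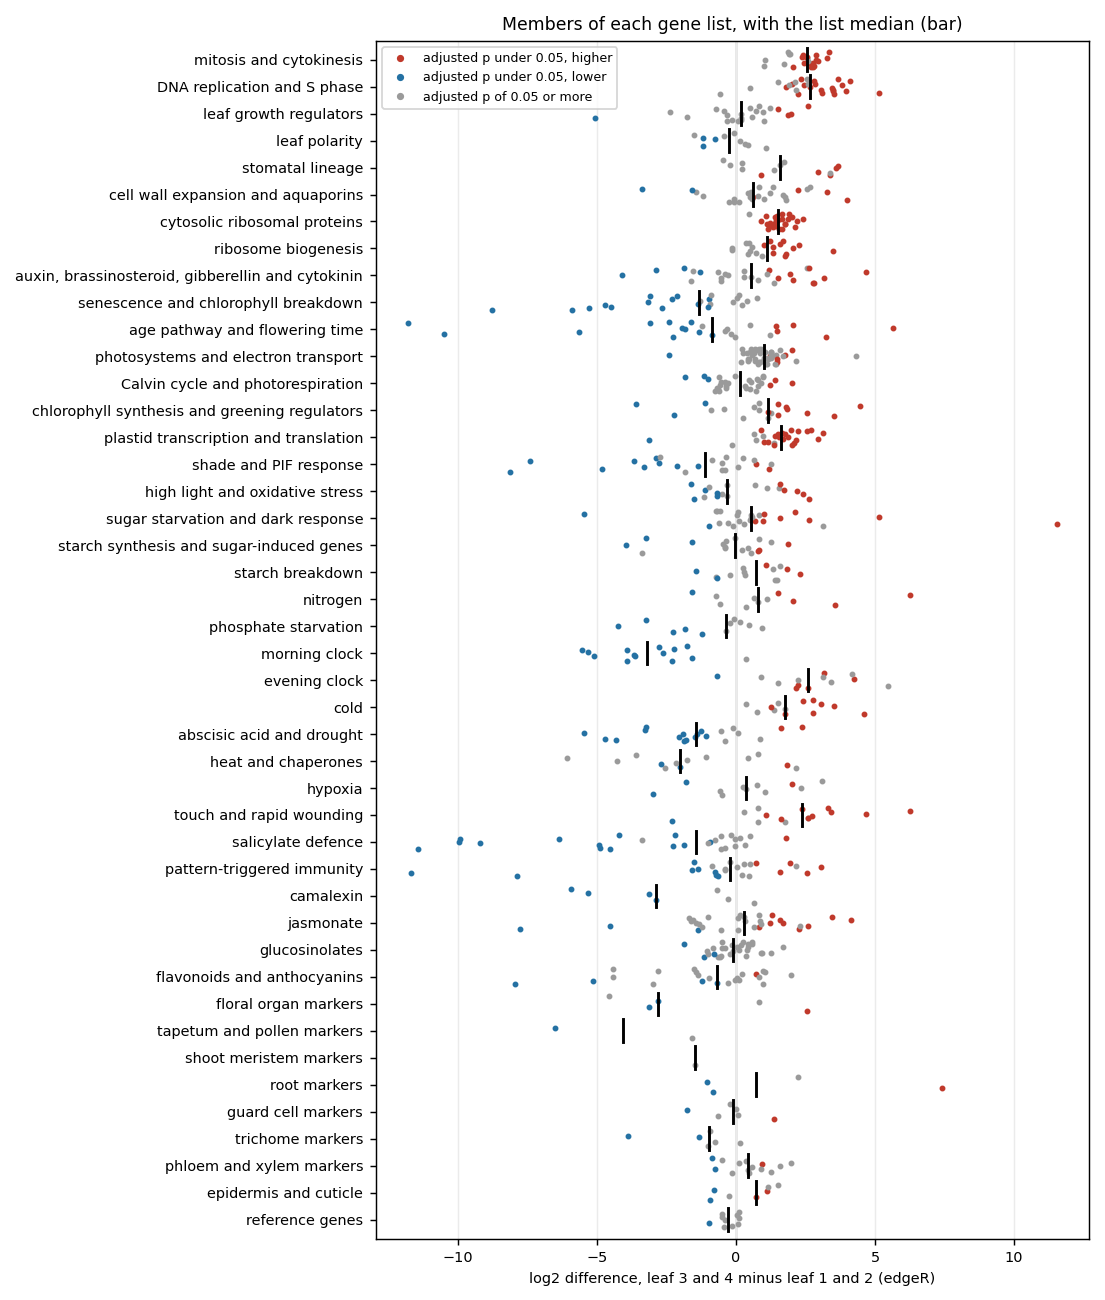
Log2 difference (horizontal axis, leaf 3 and 4 minus leaf 1 and 2) of each tested member of 44 gene lists, 1 line per list, with red points higher, blue points lower and grey points not called at an adjusted p of 0.05; the black bar is the list median. Points of the mitosis and ribosomal protein lists all lie to the right of 0 and those of the replication and plastid lists mostly so, while those of the morning clock, senescence and salicylate lists lie mostly to the left.

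The most abundant loci fitted the leaf label in all 4 libraries. RCA, which encodes rubisco activase, stood at 16868 and 12533 CPM in leaf 1 and 2 and 9976 and 10145 CPM in leaf 3 and 4, and RBCS1A, a rubisco small subunit, at 14518 and 6559 CPM in leaf 1 and 2 and 17415 and 17038 CPM in leaf 3 and 4. CAB1, a light-harvesting protein, was the most abundant locus of leaf 3 and 4 with 2.38% and 2.48% of their pairs, and stood at 16107 and 3300.4 CPM in leaf 1 and 2 and 25871 and 27159 CPM in leaf 3 and 4. Leaf 2 was the lowest library for both light-harvesting and small-subunit genes. The groups did not overlap in RCA, RBCS1A and CAB1, but none of these was called (adjusted p = 0.341, 0.345 and 0.226). Groups without overlap were common. Of the 20528 tested loci, leaf 3 and 4 both lay above leaf 1 and 2 in 7540 and both below in 8213. Also among the 5 most abundant loci of a library were LHCB1.5 and LHCA4, further light-harvesting proteins, CAB2 and CAB3, THI1, which makes the thiazole of vitamin B1, and AT1G20620, which encodes catalase 3. Of these 9 loci, CAB3 rose and AT1G20620 fell, from 3188 and 6900.1 CPM to 1321 and 1677 CPM (log2 difference -1.75 ± 0.49 (SE), adjusted p = 0.0486); its call was lost under 5 alternatives, with adjusted p-values from 0.0506 to 0.0938.

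Markers of flowers, pollen and meristems were low throughout. Of 9 floral organ markers, AP1, AP3 and CRC had no pair in leaf 3 and 4, LFY had 1 pair in leaf 4, and the summed level was 2.04 and 2.39 CPM in leaf 1 and 2 and 1.26 and 1.66 CPM in leaf 3 and 4. SEP1 (pairs in leaf 1 and 2 over leaf 3 and 4, scaled for depth: ratio 9.15, interval 3.87 to 28.4) and PI (ratio 6.99, interval 3.35 to 17.5) were lower in leaf 3 and 4. AG (log2 difference 2.53 ± 0.57) was higher, and SEP2 (ratio 24.4, interval 4.31 to 969.6) and SEP3 (0.82 ± 0.62) were not called. With the multiplexed runs of leaf 1 and 2, no floral organ marker was called higher. Of 6 tapetum and pollen markers, LTP12, EXL4 and EXL6 had no pair in leaf 3 and 4 and GRP17 had 1, PPME1 was not called (ratio 3.00, interval 0.974 to 15.0), and VGD1, a pollen pectin methylesterase, had 345 and 262 pairs in leaf 1 and 2 against 0 and 1, a ratio of 97.4 with a counting interval of 17.4 to 3853. The 6 summed to 1.90 and 1.36 CPM in leaf 1 and 2 and 0 and 0.146 CPM in leaf 3 and 4. Of 7 shoot meristem markers, WUS and CLV3 had no pair in any of the 4 libraries, STM and CUC2 had none in leaf 3 and 4, KNAT2 and CUC1 were too low to test, and BP was not called (ratio 2.81, interval 1.05 to 10.6), with a summed level of 0.323 and 0.284 CPM in leaf 1 and 2 and 0.154 and 0.262 CPM in leaf 3 and 4. The 11 root markers included 7 that were too low to test (PHT1;1, IRT1, WER, RHD6, COBL9, EXPA7 and PRP3). SCR (-1.06 ± 0.21) and SHR (-0.82 ± 0.23), which also act in leaves, were lower and CASP1 was not called (2.24 ± 1.00). PYK10, a beta-glucosidase of root and hypocotyl ER bodies, stood at 0.0606 CPM in leaf 1, 0.00458 CPM in leaf 2, 5.42 CPM in leaf 3 and 5.62 CPM in leaf 4 (log2 difference 7.39 ± 0.97 (SE), adjusted p = 0.0106), so leaf 3 and 4 lay above leaf 1 and 2, close to each other. The 11 root markers summed to 57.8 and 43.7 CPM in leaf 1 and 2 and 30.8 and 31.4 CPM in leaf 3 and 4. Whether small amounts of other tissue take part in the differences below was not tested.

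Markers of leaf cell types gave a mixed picture. Among 6 guard cell markers KAT1, a potassium channel, was higher (1.35 ± 0.17), SLAC1, an anion channel, was lower (-1.76 ± 0.48; adjusted p = 0.0509 with upper quartile scaling), and OST1, HT1, MYB60 and FAMA were between -0.65 and 0.07 and not called, and the 6 summed to 70.9 and 86.1 CPM in leaf 1 and 2 and 78.6 and 83.1 CPM in leaf 3 and 4. Among 7 trichome markers TRY (-3.87 ± 0.43) and MYB23 (-1.34 ± 0.32) were lower, GL2, TTG2, CPC and MYB106 were between -1.01 and 0.14 and not called, and GL1 had no pair in any of the 4 libraries; the 7 summed to 27.5 and 34.7 CPM in leaf 1 and 2 and 13.9 and 15.4 CPM in leaf 3 and 4. Among 14 vascular markers SEOR1 was higher (0.93 ± 0.21) and the sugar exporters SWEET11 (-0.77 ± 0.19) and SWEET12 (-0.87 ± 0.19) were lower, while PP2-A1, SUC2, APL, SEOR2, CESA4, CESA7, CESA8, HB-8, XCP1, XCP2 and VND7 were between -0.49 and 1.96 and not called. The 14 summed to 767 and 843 CPM in leaf 1 and 2 and 682 and 735 CPM in leaf 3 and 4. Of 8 epidermis and cuticle genes ATML1 (1.12 ± 0.23) and PDF2 (0.73 ± 0.17) were higher and the wax genes CER1 (-0.94 ± 0.21) and CER3 (-0.78 ± 0.21) lower, FDH, LTP1 and LTPG1 were not called, and WIN1 was too low to test; the 8 summed to 917 and 541 CPM in leaf 1 and 2 and 1121 and 1111 CPM in leaf 3 and 4. The calls of CER1, CER3, PDF2, SEOR1, SWEET12, SCR and SHR were each lost under at least 1 alternative. Of 10 genes often used as references, PP2AA3 stood at 49.3 and 51.7 against 55.9 and 52.6 CPM. UBQ10 was the only one called, at 2747 and 2802 against 1380.2 and 1440.2 CPM (log2 difference -0.98 ± 0.27 (SE), adjusted p = 0.0493), and its call was lost under 5 alternatives, with adjusted p-values from 0.052 to 0.0762. ACT8, UBC9, ACT2, UBC21, AT2G28390, YLS8, AT4G34270 and GAPC1 were between -0.51 and 0.12 and not called.

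Across all loci, those with the largest differences and at least 10 CPM in the higher group included genes of flowering, defence and nutrient status. FLP1, named for its likeness to a flowering-promoting factor, had 3487 and 5106 pairs in leaf 1 and 2 and 0 in leaf 3 and 4, which makes it at least 459.6-fold lower there, taking 3 pairs over both libraries as the limit that a count of 0 allows. AT3G13950, annotated as an ankyrin protein, had 1501 and 3650 pairs against 0, at least 276-fold lower. AGL42, a MADS-box factor of the SOC1 clade, had 10011 and 5809 pairs against 0 and 1, a ratio of 2538 (counting interval 456 to 100269). In the next paragraphs values without a library name are given for leaf 1 and 2 against leaf 3 and 4, in that order. The other 7 loci on the lower side were FT, PR1, DLO1 and PDF1.2c, which are described with their groups, the uncharacterised AT4G19430, AT4G16260, a glycosyl hydrolase, and LTP3, a lipid transfer protein. LTP3 stood at 30.5 CPM in leaf 1, 267 CPM in leaf 2, 0.247 CPM in leaf 3 and 0.0582 CPM in leaf 4, so that leaf 1 and 2 themselves differed widely.

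On the higher side, AT1G69140, which the reference lists as a transcribed pseudogene, had no pair in leaf 1 and 2 and 2982 and 7906 pairs in leaf 3 and 4, at least 22619-fold higher between these libraries, although the multiplexed library of leaf 1b held it at 0.0536 CPM; limma voom with a weight per group gave an adjusted p of 0.0678. BT2, a BTB and TAZ domain protein that nitrate induces and sugar represses, rose from 0.0657 and 0.0183 CPM to 144 and 107 CPM (log2 difference 11.54 ± 0.63 (SE), adjusted p = 0.00628). XTH31, a xyloglucan-modifying wall enzyme, stood at 3.32 and 0.719 CPM in leaf 1 and 2 and 219 and 188 CPM in leaf 3 and 4 (log2 difference 6.66 ± 0.88 (SE), adjusted p = 0.0108). AT1G07050, a CCT motif protein, stood at 0.364 and 0.829 against 50.3 and 77.5 CPM, and CYP78A8, a cytochrome P450 of a family that regulates organ growth, at 0.0960 and 0.0549 against 8.97 and 12.4 CPM. The remaining 5 were AT5G28450, of the chlorophyll a/b-binding family (7.79 ± 0.59), AT1G31690, a copper amine oxidase (7.49 ± 1.28), AT2G42170, of the actin family (6.64 ± 0.34), and the uncharacterised AT4G33467 (8.70 ± 0.50) and AT4G33980 (7.23 ± 1.16; adjusted p = 0.0518 with limma voom). The 2 groups did not overlap in these 20 loci, as in nearly all called loci, so this adds nothing to their calls.

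Genes of cell division were higher in leaf 3 and 4. Of 27 genes of DNA replication and S phase 19 rose and none fell, with a median difference of 2.65, against a background of 15.8% higher. CDC6, which loads the replicative helicase, stood at 0.465 CPM in leaf 1, 0.147 CPM in leaf 2, 10.9 CPM in leaf 3 and 10.7 CPM in leaf 4 (log2 difference 5.14 ± 0.64 (SE), adjusted p = 0.00987), 35.4-fold higher. PCNA1, the sliding clamp of DNA polymerase, stood at 1.43 and 0.206 CPM in leaf 1 and 2 and 13.5 and 14.1 CPM in leaf 3 and 4, and was 17.0-fold higher. MCM6 and MCM7, subunits of the helicase, stood at 1.73 and 0.279 against 13.9 and 14.1 CPM and at 2.74 and 0.582 against 25.4 and 26.1 CPM. In all of them leaf 2 was lowest, leaf 1 second, and leaf 3 and 4 lay close together above both.

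Of 25 genes of mitosis and cytokinesis 16 rose and none fell, with a median difference of 2.57. All 25 were higher in both leaf 3 and leaf 4 than in either of the other leaves, against 36.7% of all tested loci. TPX2, a spindle assembly factor, stood at 0.551 CPM in leaf 1, 0.142 CPM in leaf 2, 3.36 CPM in leaf 3 and 3.61 CPM in leaf 4 (log2 difference 3.33 ± 0.72 (SE), adjusted p = 0.0277). HIK, the kinesin that drives expansion of the new cell plate, was 9.65-fold higher at 0.95 and 0.188 against 5.15 and 5.82 CPM. CDKB1;2, a mitotic cyclin-dependent kinase, and MAP65-3, which crosslinks microtubules at the cell plate, were 7.72-fold and 7.38-fold higher. The absolute levels stayed low: the 25 genes summed to 43.2 and 21.9 CPM in leaf 1 and 2 and 113 and 129 CPM in leaf 3 and 4. Leaf 1 lay between leaf 2 and leaf 3 and 4 in 24 of the 25 mitosis genes and in 26 of the 27 replication genes, and in 44.3% of all loci tested.

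**Figure D2:**
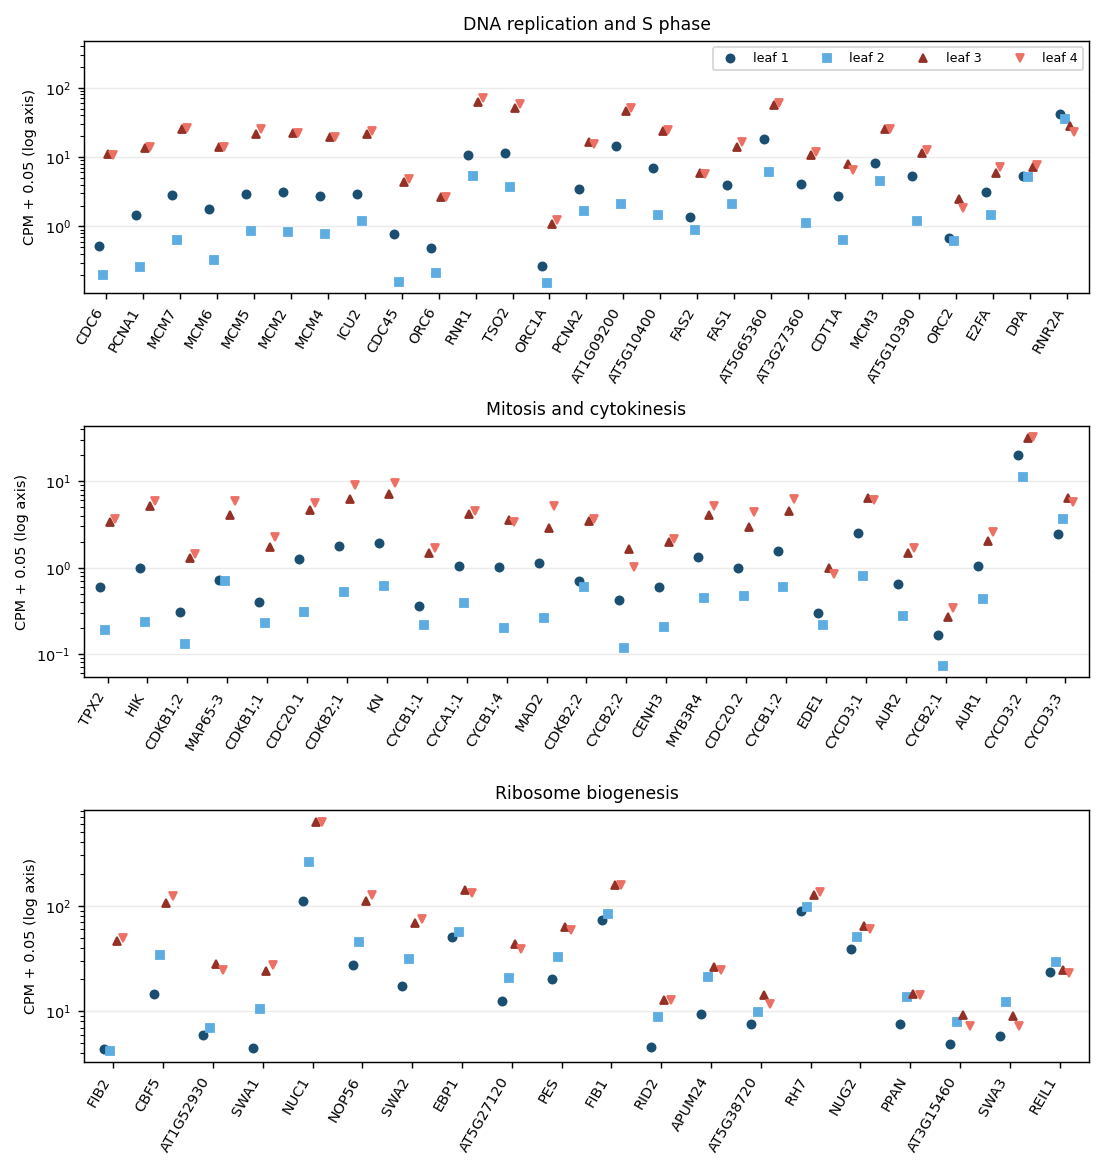
Level of each tested member of the replication, mitosis and ribosome biogenesis lists in leaf 1 to 4 (vertical axis, CPM + 0.05, log scale), ordered by log2 difference, 1 point per library. Leaf 3 and 4 lie above leaf 1 and 2 for CDC6, TPX2 and FIB2, and leaf 2 is the lowest library for most replication and mitosis genes but not for ribosome biogenesis genes.

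Short sequence motifs of growth genes were looked for in promoter windows of 250 bases before and 50 bases from each gene start in the RefSeq annotation of TAIR10.1, a build that the deposited files do not name. The windows below are, for DNA replication and for ribosome biogenesis, that of the named member with the most matches, shown because the list members moved together; capitals mark the matches, and each is written 5′ to 3′ on the strand of its gene. For MCM6 (chr5:18010618-18010917, minus strand) capitals mark the site II motif (TGGGCC or TGGGCT on either strand), and for CBF5 (chr3:21156026-21156325, minus strand), a pseudouridine synthase subunit of the nucleolus, the telo-box (AAACCCTA) and site II.
MCM6: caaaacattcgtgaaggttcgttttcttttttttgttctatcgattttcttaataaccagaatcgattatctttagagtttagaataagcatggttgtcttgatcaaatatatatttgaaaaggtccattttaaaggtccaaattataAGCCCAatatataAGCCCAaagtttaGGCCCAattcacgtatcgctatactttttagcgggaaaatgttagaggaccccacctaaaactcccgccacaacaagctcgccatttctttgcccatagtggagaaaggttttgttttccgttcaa
CBF5: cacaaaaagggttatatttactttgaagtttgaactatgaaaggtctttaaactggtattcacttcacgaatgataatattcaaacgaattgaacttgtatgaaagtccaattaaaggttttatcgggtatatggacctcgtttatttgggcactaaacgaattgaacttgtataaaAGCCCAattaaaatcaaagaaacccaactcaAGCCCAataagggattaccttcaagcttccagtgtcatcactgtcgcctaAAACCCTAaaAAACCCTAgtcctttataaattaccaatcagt

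The MYB core of mitotic genes (AACGG) was in the windows of 76% of the 25 mitosis genes and 51.9% of the 27 replication genes, and in 26.1% of the 20036 tested loci with a full window. Called loci differed little in it, with 28.3% of the higher set and 885 of 3756 windows of the lower set. Some lists that did not mostly rise also held it often, with 55% of the abscisic acid and drought windows and 43.8% of the heat windows. The salicylate windows held it in 7.69%. Site II was in 48.1% of the replication windows, 73.1% of the 26 cytosolic ribosomal protein windows and 70% of the 20 ribosome biogenesis windows, against 25.3% of all. Among lists that did not mostly rise, it was in 50% of the reference gene windows and 43.8% of the heat windows, but in 7.69% of the salicylate windows. The telo-box was in 46.2% and 55% of the 2 ribosome lists, against 5.54% of all. Over all called loci, the telo-box was in 10.9% of the higher and 2.77% of the lower set, site II in 33.7% of the higher set and 685 of 3756 windows of the lower set, and the W-box (TTGACC or TTGACT), a motif of defence genes, in 29.3% and 37.2%, with 32.7% of all loci holding one. The evening element (AAATATCT) was in 8.69% of the higher and 4.42% of the lower set. The G-box (CACGTG) with 8.28% and 9.9%, the I-box (GATAAG) with 18% and 14.5%, the DRE core (CCGAC) with 16.4% and 13.1% and TATCCA with 18.5% and 16.2% differed less between the sets. Both strands were searched, overlapping matches were allowed, and no match was tested for binding.

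The machinery of protein synthesis rose as well. Of 26 cytosolic ribosomal proteins 25 were higher in leaf 3 and 4, with a median difference of 1.49. All 26 lay above both other leaves in leaf 3 and 4, against 36.7% of all tested loci. RPS6A, a small-subunit protein, stood at 54.5 CPM in leaf 1, 60.9 CPM in leaf 2, 281 CPM in leaf 3 and 253 CPM in leaf 4 (log2 difference 2.21 ± 0.20 (SE), adjusted p = 0.00708). AT1G70600, of the L18e/L15 superfamily, was 5.25-fold higher at 62.4 and 61.9 against 326 and 326 CPM. RPL16A and AT5G20290, an S8e family protein, were 4.32-fold and 3.99-fold higher. The exception was AT2G45710, a zinc-binding ribosomal protein, with a difference of 0.45 ± 0.22. Ribosomal proteins are encoded by near-identical copies, and how reads shared between copies were counted is not given in the sources used here. Of 20 ribosome biogenesis genes 11 rose and none fell (6 with scaling by library size alone), with a median of 1.11. FIB2, one of the fibrillarins that methylate ribosomal RNA, stood at 4.36 CPM in leaf 1, 4.17 CPM in leaf 2, 46.0 CPM in leaf 3 and 49.1 CPM in leaf 4 (log2 difference 3.48 ± 0.17 (SE), adjusted p = 0.00628), 11.1-fold higher, with leaf 1 and 2 close together. CBF5 stood at 14.7 and 33.7 against 105 and 125 CPM, AT1G52930, a Brix domain protein of rRNA processing, at 5.85 and 6.81 against 27.9 and 24.8 CPM, and SWA1, a nucleolar WD-40 protein, at 4.41 and 10.4 against 24.0 and 27.4 CPM. SWA1 was not called with library size alone (adjusted p = 0.0595) or with a GC and length offset (0.0853). In this list leaf 2 lay between leaf 1 and leaf 3 and 4 in 16 of 20 genes, whereas it did so in 1 of 25 mitosis genes.

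Of 23 tested regulators of leaf growth 4 rose, a share near the background, and 1 fell, below it. GRF4, a growth-regulating factor of the leaf, stood at 0.687 and 1.17 against 4.93 and 6.14 CPM, and its cofactor GIF1 at 0.369 and 0.577 against 1.57 and 2.15 CPM. ANT, which prolongs cell division in organs, stood at 2.3 and 1.18 against 5.33 and 7.25 CPM, and TCP4, which in contrast promotes the exit from division, was also higher, at 30.0 and 30.5 against 76.1 and 95.1 CPM (adjusted p = 0.0659 with flower buds in the fit). GRF8 had 170 and 267 pairs in leaf 1 and 2 against 0 and 2, a ratio of 35.1 (counting interval 9.65 to 290.4). Of 10 polarity genes none rose, and PHV (-1.19 ± 0.17), an adaxial factor, and YAB2 (-1.18 ± 0.22) and KAN1 (-0.76 ± 0.20), abaxial factors, fell; KAN1 lost its call with upper quartile scaling (adjusted p = 0.0541) and with a GC and length offset (0.259).

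Of 13 tested genes of the stomatal lineage 5 rose and none fell, with a median of 1.59. BASL, which marks the polar side of an asymmetric division, stood at 0.172 CPM in leaf 1, 0.0504 CPM in leaf 2, 1.23 CPM in leaf 3 and 1.46 CPM in leaf 4 (log2 difference 3.59 ± 0.73 (SE), adjusted p = 0.0237). SPCH, the factor that starts the lineage, stood at 0.445 and 0.105 against 2.53 and 3.20 CPM; its call was lost with the multiplexed runs of leaf 1 and 2 (adjusted p = 0.0683). SDD1, a protease that limits stomatal density, was 7.73-fold higher, and ERL2, a receptor kinase, 1.87-fold (adjusted p = 0.0831 with library size alone). The fifth was EPF2, a secreted peptide that limits the lineage (3.65 ± 0.62), at levels under 1 CPM. FAMA, a factor of the last step of guard cell formation, stood at 15.9 and 18.0 against 16.5 and 19.0 CPM.

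Among 28 wall expansion and aquaporin genes 4 rose and 2 fell, a count of risen members near the background. EXPA15, an expansin, stood at 1.27 CPM in leaf 1, 0.307 CPM in leaf 2, 10.7 CPM in leaf 3 and 14.6 CPM in leaf 4 (log2 difference 4.00 ± 0.75 (SE), adjusted p = 0.0202). EXPA3 and EXPA16 were 9.76-fold and 4.74-fold higher, and EXPA4, which lost its call under 5 alternatives, 1.53-fold. XTH24, a wall-modifying enzyme, fell from 122 and 118 CPM to at most 13.1 CPM (log2 difference -3.37 ± 0.22 (SE), adjusted p = 0.00628), and the water channel PIP1;2 was 3.02-fold lower. Several wall genes differed widely within leaf 1 and 2, such as XTH7, chosen after its values were seen, at 50.7 and 0.636 against 102 and 73.2 CPM.

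Of 27 hormone genes 9 rose and 4 fell. The cytokinin-induced response regulators ARR6 and ARR5 stood at 0.586 and 0.760 against 10.3 and 24.5 CPM and at 1.55 and 2.08 against 11.3 and 13.8 CPM. TAA1, the first enzyme of the main auxin synthesis route, was 6.76-fold higher at 1.53 and 3.18 against 15.3 and 16.6 CPM. GA3OX1, which makes active gibberellin, stood at 3.10 and 1.63 against 20.4 and 22.2 CPM, while GA20OX1, the enzyme before it, was lower at 8.81 and 5.05 against 1.88 and 1.86 CPM. The auxin-conjugating enzymes GH3.5 (-4.10 ± 0.32) and GH3.3 (-2.87 ± 0.58) and the auxin-response gene IAA2 (-1.31 ± 0.28) fell. In each of these 8 genes the groups did not overlap, as in nearly all called loci.

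Genes for building the plastid were higher as well. Of 26 nuclear genes for plastid transcription and translation 20 rose and 1 fell, with a median of 1.6. FLN1 and FLN2, fructokinase-like partners of the plastid RNA polymerase, stood at 4.78 and 8.17 against 55.2 and 58.0 CPM and at 8.72 and 12.4 against 72.8 and 91.7 CPM. CPN60B, the chaperonin that folds rubisco, stood at 177 CPM in leaf 1, 173 CPM in leaf 2, 1134 CPM in leaf 3 and 1123 CPM in leaf 4 (log2 difference 2.69 ± 0.23 (SE), adjusted p = 0.00689), and the plastid ribosomal protein RPL4 was 5.82-fold higher. The one gene that fell was SIG5, a light- and stress-induced sigma factor, at 218 and 133 against 23.1 and 16.7 CPM (log2 difference -3.14 ± 0.35 (SE), adjusted p = 0.00840). SIG1, SCO1, RPS1, PTAC2 and PTAC16 were not called, with differences from -0.13 to 1.37.

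Of 19 genes of chlorophyll synthesis and greening 8 rose and 3 fell; the 8 were enzymes or enzyme subunits, and the 3 were regulators. PORB, a light-dependent protochlorophyllide reductase, rose from 111 and 149.8 CPM to 2716 and 2962 CPM (log2 difference 4.44 ± 0.34 (SE), adjusted p = 0.00662), and PORA, which is best known from etiolated seedlings, stood at 3.57 and 1.13 against 29.4 and 24.2 CPM. CHLI1, a subunit of magnesium chelatase, and AT5G18660, the divinyl reductase of the pathway, were 3.60-fold and 5.90-fold higher. The GATA factors GNL and GNC, which promote greening and respond to cytokinin, fell to 1.23 and 0.844 CPM from 10.7 and 14.7 CPM and to 13.5 and 13.6 CPM from 71.8 and 57.0 CPM. GLK1, a regulator of chloroplast development, was 2.17-fold lower, with adjusted p-values of 0.0864 under limma voom and 0.0637 with flower buds in the fit.

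Genes for the photosynthetic apparatus itself were high in all leaves. Of 49 genes of the photosystems and electron transport 5 rose and 1 fell, a share of risen members below the background. However, 48 had a positive difference, and 44 lay above both other leaves in leaf 3 and 4, against 36.7% of all tested loci. Leaf 1 and 2 summed to 139898 and 64737 CPM for the list and leaf 3 and 4 to 224664 and 221700.0 CPM. With DESeq2's Wald test 28 were called higher and with limma voom 23. CAB3 (2.02 ± 0.49), the photosystem I subunits PSAK (1.76 ± 0.50) and PSAD2 (1.49 ± 0.34), FNR2 (1.46 ± 0.30), a ferredoxin-NADP reductase, and PSAD1 (1.24 ± 0.32) were the 5, and CAB3 belongs to a cluster of near-identical copies whose reads may be shared. PSAK lost its call with a filter at a mean of 1 CPM (adjusted p = 0.051) and with runs summed (0.0525), and PSAD2 with flower buds in the fit (0.123). LHCB4.3, a minor antenna protein that rises in strong light, was lower at 210.1 and 319 against 54.7 and 44 CPM (log2 difference -2.42 ± 0.29 (SE), adjusted p = 0.00936).

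Of 30 Calvin cycle and photorespiration genes 3 rose and 3 fell, both shares below the background. CP12-1, which holds Calvin cycle enzymes in an inactive complex in the dark, stood at 474 and 486 against 1694 and 2157 CPM, and TIM, a triose phosphate isomerase, and RBCS1B, a rubisco small subunit, were 2.34-fold and 2.62-fold higher, RBCS1B without a call when flower buds were in the fit (adjusted p = 0.0648). The 3 that fell all act in photorespiration: the peroxisomal catalase CAT2 at 2539 and 1897 against 629 and 623 CPM, the aminotransferase GGT1 (-1.16 ± 0.29) and the glycolate oxidase GLO1 (-1.02 ± 0.27). GGT1 and GLO1 lost their calls with upper quartile scaling (adjusted p = 0.05002 and 0.0578), and GLO1 also with flower buds in the fit (0.0999).

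More shade-response genes fell than rose. Plants under a canopy sense a low ratio of red to far-red light through phytochrome, which frees PIF factors to switch these genes on. Of 22 genes 9 fell and 2 rose. HFR1, a shade-induced bHLH factor, stood at 134 CPM in leaf 1, 55.4 CPM in leaf 2, 0.524 CPM in leaf 3 and 0.582 CPM in leaf 4 (log2 difference -7.41 ± 0.60 (SE), adjusted p = 0.00670). PIL1, a fast shade marker, had 9864 and 7791 pairs in leaf 1 and 2 against 7 and 3, a ratio of 283 (counting interval 154 to 591). FHL, which helps phytochrome A into the nucleus, was 28.2-fold lower, and YUC9, an auxin synthesis enzyme, had 294 and 511 pairs against 3 and 7 (ratio 12.9, interval 6.99 to 27.0). PIF4 (0.73 ± 0.18) and HAT3 (1.2 ± 0.29) were the 2 that rose. With library size alone neither was called (adjusted p = 0.115 and 0.0834). PIF4 was also not called with flower buds in the fit (0.278), nor HAT3 with a GC and length offset (0.0594).

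Of 18 tested genes of high light and oxidative stress 5 rose and 5 fell. BAP1, a target of singlet oxygen signals, stood at 1.11 and 0.810 against 6.6 and 5.18 CPM, and ZAT12, a zinc finger protein of many stresses, at 4.53 and 1.55 against 18.3 and 14.2 CPM. FSD2, an iron superoxide dismutase of the plastid, and PRXQ, a plastid peroxiredoxin, were 4.60-fold and 3.29-fold higher. ELIP1, an early light-induced protein, stood at 60.4 and 55.5 against 20.6 and 19.6 CPM (adjusted p = 0.137 with flower buds in the fit), and GPX7, a plastid glutathione peroxidase, and ZEP, which makes violaxanthin, were 3.06-fold and 2.16-fold lower. CCS, the copper chaperone of superoxide dismutase, was 1.61-fold lower and lost its call under 5 alternatives.

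Morning genes of the clock were lower in leaf 3 and 4 and more evening genes rose than fell. Of 14 morning clock genes 13 fell and none rose, with a median of -3.20, against a background of 18.7% lower. CCA1 and LHY, the paired MYB-like factors that peak at dawn, stood at 341 and 139.8 against 19.0 and 12.8 CPM and at 284 and 22.4 against 3.17 and 3.41 CPM. RVE8 and RVE1, related morning factors, stood at 78.6 CPM in leaf 1, 35.7 CPM in leaf 2, 1.79 CPM in leaf 3 and 1.51 CPM in leaf 4 (log2 difference -5.11 ± 0.49 (SE), adjusted p = 0.00733) and at 56.5 and 28.6 against 1.36 and 0.786 CPM (log2 difference -5.31 ± 0.51 (SE), adjusted p = 0.00733). PRR7, which peaks after them, was the exception at 196 and 261 against 293 and 286 CPM (log2 difference 0.34 ± 0.23). Leaf 1 and 2 were far apart for LHY, but both were above leaf 3 and 4.

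Of 13 evening clock genes 5 rose and 1 fell, with a median of 2.59. In leaf 3 and 4, 12 lay above both other leaves, against 36.7% of all tested loci. DESeq2's Wald test and limma voom each called 10 higher, and scaling by library size alone 2. LUX, the DNA-binding member of the evening complex, stood at 0.778 CPM in leaf 1, 2.56 CPM in leaf 2, 29.6 CPM in leaf 3 and 34.3 CPM in leaf 4 (log2 difference 4.26 ± 0.63 (SE), adjusted p = 0.0130), and its partner ELF4 at 0.960 and 3.36 against 15.2 and 23.55 CPM (log2 difference 3.16 ± 0.67 (SE), adjusted p = 0.0264). TOC1, the evening repressor of CCA1, stood at 8.68 and 26.1 against 63.3 and 92.2 CPM, and GRP8, a clock-regulated RNA-binding protein, at 64.2 and 248 against 835 and 1042 CPM. Both missed the threshold with library size alone (adjusted p = 0.0603 and 0.0532), and GRP8 also with a GC and length offset (0.0813). BOA, the closest relative of LUX, was also higher (2.24 ± 0.55), from levels below 1 CPM. FKF1, a blue-light receptor, had the largest difference of the list (5.45 ± 1.77) but was not called; leaf 1 and 2 stood at 0.0657 and 4.38 CPM and leaf 3 and 4 at 78.1 and 117 CPM. ZTL, a relative of FKF1 that is not regulated as strongly at the level of RNA, was 1.61-fold lower (adjusted p = 0.055 with upper quartile scaling and 0.213 with flower buds in the fit).

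Leaf 2 lay between leaf 1 and leaf 3 and 4 in 11 of the 14 morning genes and in 11 of the 13 evening genes, and in 32.3% of all loci tested. Leaf 1 was thus highest for most morning genes and lowest for most evening genes. The evening element was in the promoter windows of 69.2% of the evening list, 14.3% of the morning list and 6.05% of all tested loci, and the G-box in 64.3% of the morning list and 8.8% of all.

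**Figure D3:**
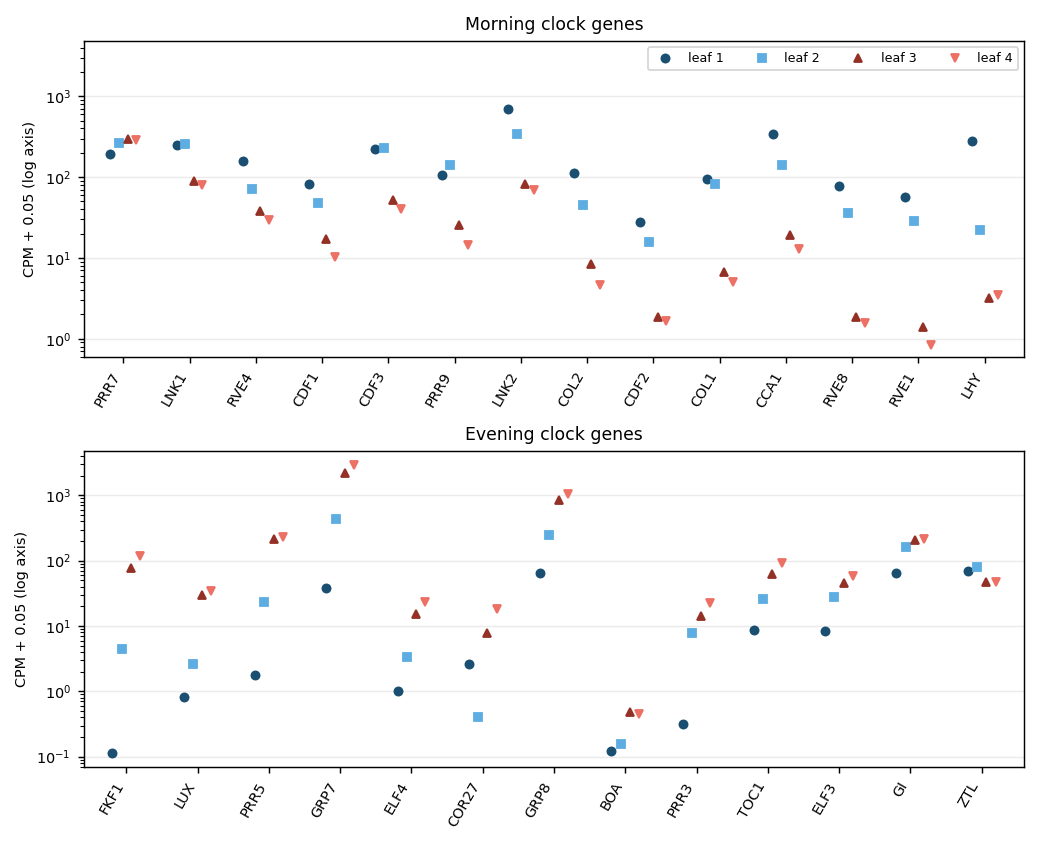
Level of each morning and evening clock gene in leaf 1 to 4 (vertical axis, CPM + 0.05, log scale), ordered by log2 difference, 1 point per library. The points of leaf 3 and 4 lie below those of leaf 1 and 2 for all morning genes but PRR7 and above them for all evening genes but ZTL, of which 5 were called, and leaf 2 mostly lies between leaf 1 and the other pair.

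Of 26 tested members of the list of sugar starvation and dark response 8 rose and 2 fell. BT2, given above, was the largest. DIN10, a raffinose synthase family protein induced in the dark, stood at 3.16 CPM in leaf 1, 2.5 CPM in leaf 2, 85.7 CPM in leaf 3 and 114 CPM in leaf 4 (log2 difference 5.14 ± 0.28 (SE), adjusted p = 0.00628). BZIP1, a factor of the low-energy response, stood at 1.45 and 0.852 against 7.64 and 6.61 CPM, and DRM1, a dormancy-associated protein, at 7.89 and 14.9 against 38.0 and 61.8 CPM. BCAT2, a branched-chain aminotransferase, fell from 14.7 and 75 CPM to 1.02 and 1.02 CPM, and PRODH1, a proline dehydrogenase, was 1.98-fold lower; with flower buds in the fit DRM1 and PRODH1 were not called (adjusted p = 0.115 and 0.0648). With library size alone the list gave 5 higher and 4 lower.

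Of 17 genes of starch synthesis and sugar induction 3 rose and 3 fell, both shares near the background. GBSS1, the granule-bound starch synthase, stood at 527 CPM in leaf 1, 337 CPM in leaf 2, 33.9 CPM in leaf 3 and 21.1 CPM in leaf 4 (log2 difference -3.97 ± 0.40 (SE), adjusted p = 0.00746), BAM5, a sugar-induced beta-amylase, was 9.50-fold lower and APL3, a sugar-induced subunit of ADP-glucose pyrophosphorylase, 2.98-fold lower. PGM, the plastid phosphoglucomutase, was 3.68-fold higher, and SS1 and PGI1 were 1.72-fold and 1.75-fold higher, without a call under library size alone (adjusted p = 0.0883 and 0.0797). SS1 was also not called with flower buds in the fit (0.117), nor PGI1 with a GC and length offset (0.054). Of 14 starch breakdown genes 3 rose and 2 fell, the latter also near the background. PHS1, a plastid starch phosphorylase, stood at 77.9 and 205 against 696 and 698 CPM, AMY3, an alpha-amylase, at 92.9 and 181 against 466 and 510.4 CPM, and LSF1 was 2.13-fold higher. BAM1, a beta-amylase of stress and guard cells, was 2.72-fold lower and the maltose exporter MEX1 1.6-fold lower (adjusted p = 0.0527 for MEX1 with upper quartile scaling). In 9 of these 14 genes leaf 2 lay between leaf 1 and leaf 3 and 4, as for SEX1, the starch-phosphorylating enzyme, at 164 and 726 against 1123 and 1206 CPM, which was not called.

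Nitrogen genes included large rises. Of 11 tested genes 4 rose and 1 fell. LBD39 and LBD38, repressors that nitrogen induces, stood at 0.601 and 0.00458 against 24.5 and 20.9 CPM and at 4.38 and 0.948 against 31.4 and 31.6 CPM. UPM1, which makes the siroheme of nitrite reductase, and ASN2, an asparagine synthetase, were 4.09-fold and 2.82-fold higher, and the nitrate transporter and sensor NRT1.1 was 2.98-fold lower. Of 11 tested phosphate starvation genes none rose and 5 fell. PAP17, an acid phosphatase, stood at 42.0 CPM in leaf 1, 38.2 CPM in leaf 2, 4.78 CPM in leaf 3 and 3.78 CPM in leaf 4 (log2 difference -3.23 ± 0.21 (SE), adjusted p = 0.00628). PS2, a pyrophosphatase, had 617 and 583 pairs in leaf 1 and 2 against 7 and 3 (ratio 19.3, interval 10.4 to 40.3), and AT1G17710, a phosphatase-related protein, and MGD2, which makes galactolipid, were 4.77-fold and 3.58-fold lower. The fifth was SPX1, a phosphate-sensing protein (-1.23 ± 0.31).

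Genes of leaf senescence were lower in leaf 3 and 4. Of 22 tested genes 13 fell and none rose, with a median of -1.34, against a background of 18.7% lower. NAP, a NAC factor that drives senescence, stood at 118 CPM in leaf 1, 86.0 CPM in leaf 2, 6.87 CPM in leaf 3 and 2.18 CPM in leaf 4 (log2 difference -4.50 ± 0.62 (SE), adjusted p = 0.0116). SAG13, an early marker, had 12754 and 9267 pairs in leaf 1 and 2 against 3 and 5, a ratio of 442 (counting interval 224 to 1023). SGR2, a relative of the STAY-GREEN magnesium dechelatase, was 26.1-fold lower, and JUB1, a NAC factor that delays senescence, was lower too, with 627 and 1353 pairs against 6 and 2 (ratio 39.7, interval 20.12 to 92.1). SAG12, the protease of late senescence, had 15 pairs in leaf 2 and none in the other libraries, so it was too low to test.

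Of 23 genes of the age and flowering list 11 fell and 5 rose. With upper quartile scaling 8 fell, and with library size alone 12. FT, the mobile florigen made in leaf veins, had 4444 and 5229 pairs in leaf 1 and 2 and 0 and 1 in leaf 3 and 4, a ratio of 1552 (counting interval 279 to 61311), and its close relative TSF had 630 and 900 pairs against 0, at least 81.8-fold lower. FUL, a MADS-box factor of the flowering transition, stood at 24.2 CPM in leaf 1, 31.3 CPM in leaf 2, 0.647 CPM in leaf 3 and 0.466 CPM in leaf 4 (log2 difference -5.64 ± 0.31 (SE), adjusted p = 0.00628), and SOC1, another, at 100 and 96.0 against 31.7 and 31.4 CPM. SPL10, of the factors that the microRNA miR156 holds down in young plants, was 8.46-fold lower, and of the 9 SPL genes in the list SPL2, SPL4, SPL5, SPL6, SPL10 and SPL11 fell, while SPL3, SPL9 and SPL15 had differences of -1.24 ± 0.38, -0.20 ± 0.19 and 1.21 ± 0.54 and were not called.

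The 5 that rose were repressors of flowering. SVP and TOE1, also repressors, and CO and AGL24, promoters, were not called. FLC, the MADS-box repressor that cold silences, stood at 0.157 CPM in leaf 1, 0.00458 CPM in leaf 2, 4.22 CPM in leaf 3 and 3.87 CPM in leaf 4 (log2 difference 5.65 ± 1.28 (SE), adjusted p = 0.0305), and its relative MAF5 at 0.819 and 0.421 against 2.68 and 2.42 CPM (adjusted p = 0.0521 with flower buds in the fit). SMZ, TOE2 and SNZ, AP2-like repressors that miR172 targets, stood at 0.263 and 0.105 against 1.45 and 1.98 CPM, 7.09 and 6.91 against 19.6 and 19.0 CPM and 11.7 and 12.4 against 32.8 and 33.1 CPM. In each of the 5 the groups did not overlap, as in nearly all called loci. FLM, a further MADS-box repressor, was among the 11 that fell (-0.86 ± 0.23). The kit named in the labels does not mark strand, so reads from FLC and from its antisense transcripts cannot be told apart. The growth stage in the labels is the same for all 4 leaves.

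**Figure D4:**
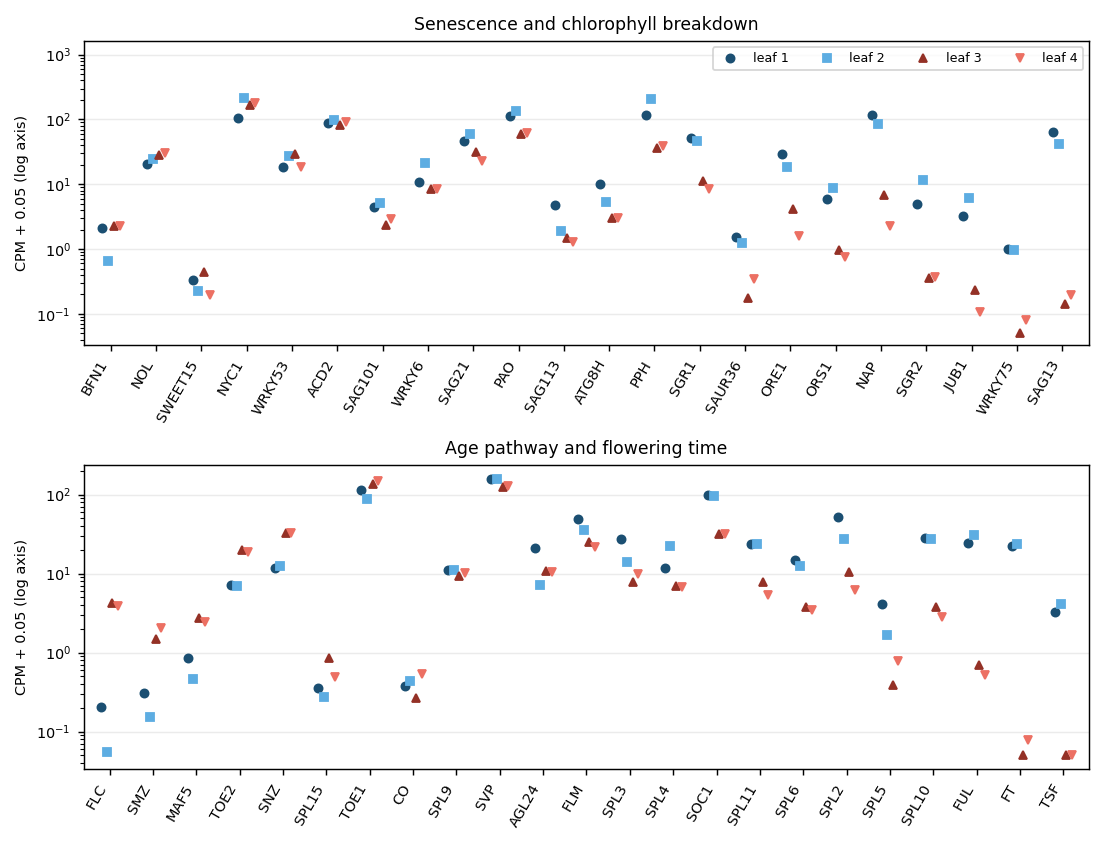
Level of each tested senescence gene and each age and flowering gene in leaf 1 to 4 (vertical axis, CPM + 0.05, log scale), ordered by log2 difference, 1 point per library. TSF and FT lie at the bottom of the axis in leaf 3 and 4, whereas FLC and SMZ are above leaf 1 and 2.

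Cold-response genes were higher in leaf 3 and 4. Of 13 genes 8 rose and none fell, with a median of 1.77, and all 13 lay above both other leaves, against 36.7% of all tested loci. COR15B, a protectant protein of the chloroplast stroma, stood at 45.3 CPM in leaf 1, 39.2 CPM in leaf 2, 461 CPM in leaf 3 and 499 CPM in leaf 4 (log2 difference 3.5 ± 0.22 (SE), adjusted p = 0.00628), and COR15A was 6.87-fold higher. CBF1 and CBF2, the factors that switch on such genes, stood at 0.652 and 1.41 against 34.4 and 16.2 CPM and at 1.63 and 5.41 against 39.6 and 18.6 CPM; they lie beside CBF3 as close copies, and reads may be shared between them. RD29A, which both cold and drought induce, stood at 105 and 252 against 777 and 1099 CPM. ERD10, COR47, CBF3, KIN2 and GOLS3 were not called, with differences from 0.36 to 1.76. The evening element was in 38.5% of the 13 windows and the DRE core, which CBF factors bind, also in 38.5%, against 6.05% and 16.1% of all loci.

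More genes of abscisic acid and drought fell than rose. Of 20 genes 13 fell and 2 rose, with a median of -1.44. RD20, a caleosin, stood at 316 CPM in leaf 1, 155 CPM in leaf 2, 5.46 CPM in leaf 3 and 5.09 CPM in leaf 4 (log2 difference -5.48 ± 0.45 (SE), adjusted p = 0.00670). GBF3, a bZIP factor, and GOLS1, a galactinol synthase, were 26.1-fold and 19.8-fold lower, and HAB1, a phosphatase that abscisic acid inhibits, stood at 93.6 and 83.2 against 9.28 and 9.11 CPM. RD26, a NAC factor, rose (2.36 ± 0.23), as did CYP707A3, which breaks down abscisic acid (1.6 ± 0.42; adjusted p = 0.0733 with limma voom and 0.0514 with the HiSeq libraries thinned). ABF4, RD29B, ABI1, P5CS1 and NCED3 were not called, with differences from -0.54 to 0.88. P5CS1, which makes proline, stood at 499 and 53.1 against 307 and 280.4 CPM, with leaf 1 and 2 on either side of leaf 3 and 4.

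More genes of the touch and rapid wounding list rose than fell. Of 15 genes 9 rose and 1 fell, with a median of 2.37. RRTF1, a redox-responsive ERF, stood at 0.435 CPM in leaf 1, 0.238 CPM in leaf 2, 34.9 CPM in leaf 3 and 16.0 CPM in leaf 4 (log2 difference 6.24 ± 0.60 (SE), adjusted p = 0.00733). ERF6 and ERF5, which stress induces within minutes, stood at 1.4 and 5.23 against 84.9 and 83.9 CPM and at 5.06 and 3.77 against 45.6 and 41.9 CPM, and the calmodulin-like CML38 was 10.7-fold higher. WRKY46 was 5-fold lower. TCH3, MYB44, CML37, TCH2 and TCH4 were not called, with differences from 0.29 to 2.59. Leaf 3 exceeded leaf 4 for RRTF1, while the pair lay close together for ERF5 and ERF6.

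For heat and low-oxygen genes the share that fell was near the background and the share that rose was below it. Of 13 tested heat and chaperone genes 1 rose and 2 fell. With limma voom, library size alone, no filter on low counts or flower buds in the fit, 5 fell. HSP18.2 stood at 0.804 and 0.527 against 2.4 and 2.39 CPM, and the factors HSFA7A and HSFB1 at 2.08 and 3.13 against 0.370 and 0.437 CPM and at 18.4 and 15.1 against 3.91 and 4.43 CPM. The list median was -2.01, with leaf 2 apart from the others: HSP70 stood there at 113 CPM against 7.16, 4.32 and 5.47 CPM in leaf 1, 3 and 4, and HSFA2 at 31.9 CPM against 1.15, 0.339 and 0.146 CPM; both genes were chosen after their values were seen. Of 11 tested hypoxia genes HRA1 rose (2.01 ± 0.31) and HRE1 (-1.81 ± 0.32) and PCO2 (ratio 8.13, interval 2.73 to 39.9 for leaf 1 and 2 over leaf 3 and 4) fell.

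Salicylate defence genes were mostly lower or not called. Of 26 genes 13 fell and 1 rose, with a median of -1.44. PR1, the standard marker of salicylate signalling, had 13069 and 5023 pairs in leaf 1 and 2 against 1 and 0, a ratio of 2903 (counting interval 521 to 114668). PR2, a beta-1,3-glucanase, stood at 268 CPM in leaf 1, 150.0 CPM in leaf 2, 2.5 CPM in leaf 3 and 2.53 CPM in leaf 4 (log2 difference -6.38 ± 0.40 (SE), adjusted p = 0.00628). DLO1, which breaks salicylate down, had 3924 and 8943 pairs against 0 and 2 (ratio 1032, interval 286 to 8525). ALD1, the first enzyme of pipecolate synthesis, had 263 and 161 pairs against 0, at least 22.7-fold lower.

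Some upstream genes of salicylate were not called. ICS1, the synthesis enzyme, stood at 21.1 and 17.5 against 16.6 and 17.56 CPM, and NPR1, a salicylate receptor, at 54.0 and 63.7 against 42.8 and 46.6 CPM; neither was called. PAD4, a signalling hub upstream of salicylate, was lower (-0.95 ± 0.16), and its partner EDS1 was not called (-0.53 ± 0.17). ICS1, NPR1, PAD4 and EDS1 were chosen after their values were seen. GRX480, a glutaredoxin induced by salicylate, was the one that rose (1.81 ± 0.34).

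**Figure D5:**
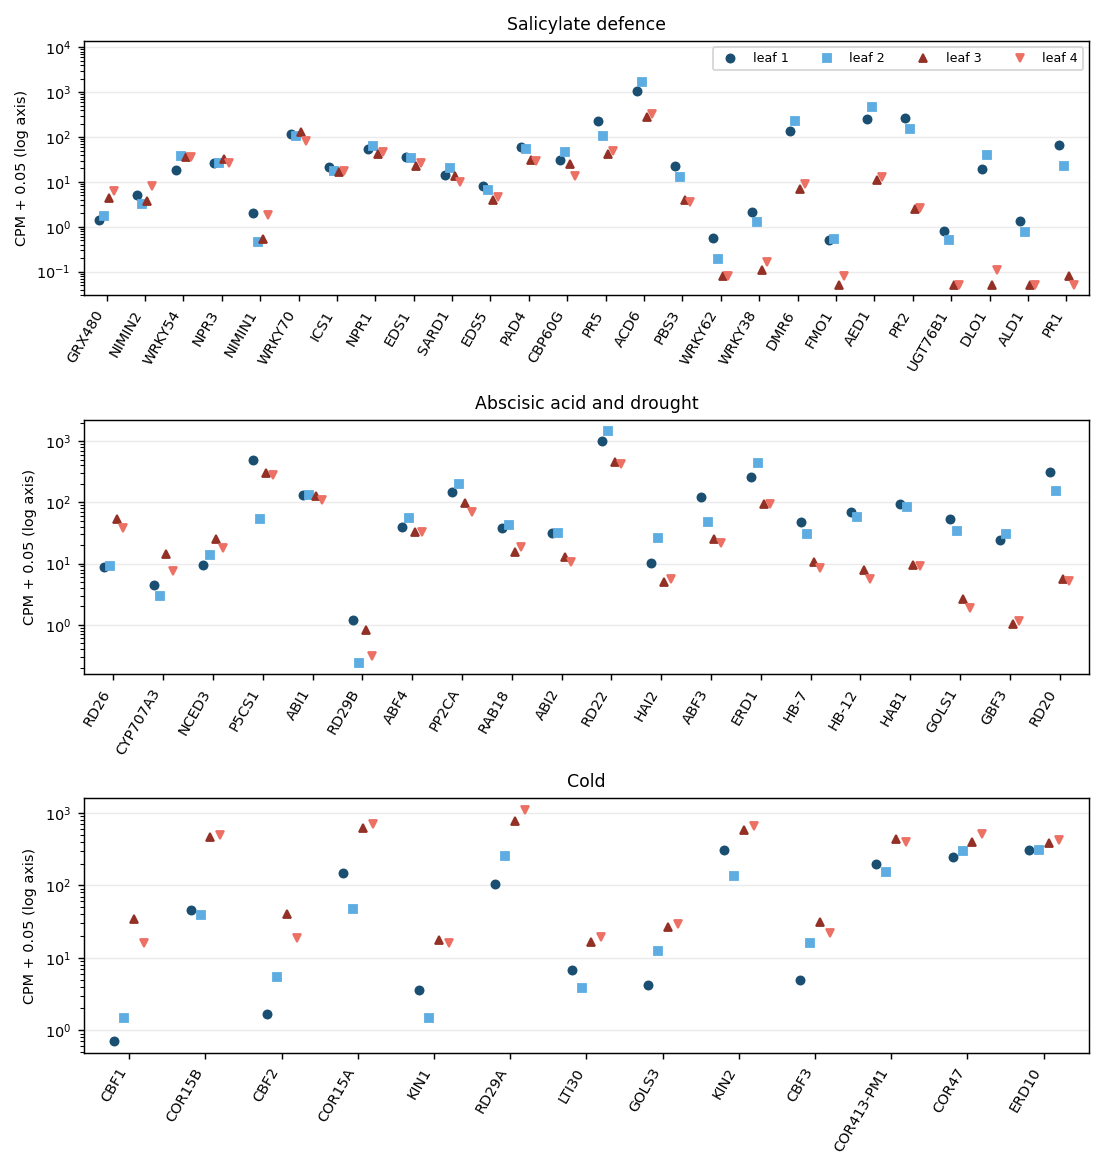
Level of each tested salicylate, abscisic acid and drought, and cold gene in leaf 1 to 4 (vertical axis, CPM + 0.05, log scale), ordered by log2 difference, 1 point per library. PR1, ALD1 and DLO1 lie near the bottom of the axis in leaf 3 and 4, RD20 and GBF3 are lower there, and the points of leaf 3 and 4 lie above those of leaf 1 and 2 for all 13 cold genes, of which 8 were called.

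Of 23 tested genes of pattern-triggered immunity, the response to conserved microbial molecules, 8 fell and 5 rose. FRK1, a flagellin-induced kinase, had 511 and 936 pairs in leaf 1 and 2 and none in leaf 3 and 4, at least 77.4-fold lower. RBOHD, the oxidase of the reactive oxygen burst, stood at 155 and 214 against 65.3 and 59.2 CPM, and the kinases MPK3 and SOBIR1 were 2.88-fold and 2.58-fold lower. The ubiquitin ligases PUB22 and PUB23, which damp this response, stood at 0.92 and 0.577 against 8.08 and 4.34 CPM and at 3.52 and 2.02 against 21.0 and 11.5 CPM, and WRKY22 and CYP81F2, an enzyme of indole glucosinolates, were 3.87-fold and 2.98-fold higher. With upper quartile scaling, or with the multiplexed runs, 5 fell.

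Of 7 genes of camalexin, the main indole phytoalexin, 4 fell and none rose. PAD3, the last enzyme, had 991 and 2117 pairs in leaf 1 and 2 against 4 and 4 (ratio 62.3, interval 31.6 to 145), and CYP71A12 had 213 and 306 pairs against 1 and 1 (ratio 41.6, interval 11.5 to 345). GSTF6 and GSTF7, glutathione transferases that are close copies of each other, stood at 75.2 and 132 against 13.0 and 10.5 CPM and at 62.7 and 95.7 against 11.6 and 10.04 CPM. CYP79B2 (0.65 ± 0.65), which also feeds indole glucosinolates, CYP71A13 (-0.30 ± 0.60) and GGP1 (-0.67 ± 0.19) were not called.

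Of 30 tested jasmonate genes 9 rose and 3 fell, and those that rose included the synthesis genes LOX4, LOX3, AOS, AOC2 and OPR3. The lipoxygenase LOX4 stood at 13.6 CPM in leaf 1, 12.8 CPM in leaf 2, 67.3 CPM in leaf 3 and 91.2 CPM in leaf 4 (log2 difference 2.59 ± 0.22 (SE), adjusted p = 0.00689), and the repressor JAZ1 was 4.81-fold higher. CYP94B3, which inactivates the hormone, was 10.8-fold higher, and JAZ7 17.59-fold, with an adjusted p of 0.0569 under limma voom. The defensin PDF1.2 stood at 605 and 70.5 against 1.23 and 1.86 CPM, its neighbour and near-identical copy PDF1.2c had 34560 and 5063 pairs in leaf 1 and 2 against 0 and 2, and reads may be shared between them. TAT3, a tyrosine aminotransferase, was 23.4-fold lower, and ORA59, the ERF that activates PDF1.2, 2.57-fold. VSP2, a storage protein and marker of the other jasmonate branch, stood at 32.4 and 2.11 against 4.59 and 8.18 CPM and was not called.

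Secondary metabolism showed few rises. Of 29 tested glucosinolate genes none rose and 3 fell, below the background: the transporters GTR2 (-1.88 ± 0.33) and GTR1 (-0.80 ± 0.17) and MYB28 (-1.17 ± 0.22), a regulator of aliphatic glucosinolates. Of 23 flavonoid genes 1 rose and 4 fell, the latter near the background. PAP2, a MYB activator of anthocyanin synthesis, had 1146 and 2048 pairs in leaf 1 and 2 against 2 and 0 (ratio 256, interval 70.9 to 2117). DFR, the first enzyme specific to anthocyanins, stood at 3.23 CPM in leaf 1, 36.6 CPM in leaf 2, 0.586 CPM in leaf 3 and 0.553 CPM in leaf 4 (log2 difference -5.13 ± 1.3 (SE), adjusted p = 0.0394), with leaf 2 well above leaf 1. TTG1, a WD-40 partner of the MYB factors, was 2.32-fold lower. UGT78D2 (-0.70 ± 0.19) and CHI (0.70 ± 0.18), which rose, lost their calls under 6 and 3 alternatives.

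GC content and length of the loci moved with the differences. By GC content of the exons, the median difference went from -0.33 in the lowest of 5 bins to 0.20 in the highest, and by locus length from 0.15 in the shortest of 5 bins to -0.19 in the longest. The median GC content was 41.7% for higher, 40.6% for lower and 41.2% for loci not called. With an offset for both properties the counts of calls stayed within 1.5 times of those given, but the loci changed in part. Of the 3243 higher and 3833 lower loci, 3163 and 3756 had a GC value, and 2787 and 3152 were called again. Their part in the differences beyond that was not tested.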

How the data were processed

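Polyadenylated RNA from leaves was read as pairs. Whole-number counts of read pairs per locus, not normalized, were made by the authors and deposited per library: pairs were aligned with Bowtie2 version 2.0, per the submitters' processing notes, and counted with a program named sam2pkm, per the file headers. The genome build, annotation, strand setting and treatment of reads with several matches are not named in these sources. Names, exon GC content and promoter windows came from RefSeq's annotation of TAIR10.1.

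The deposited counts of 4 leaf libraries, with totals of 192817049, 187815247, 35302492 and 37682650 pairs for leaf 1 to 4, were compared as 2 against 2 with the quasi-likelihood test of edgeR 4.0.16 (R 4.3.3), with TMM scaling, filterByExpr at a minimum count of 10, no covariate, and Benjamini-Hochberg adjustment over 20528 of the 28094 loci, called at 0.05. On counts simulated from 20358 loci it recovered 3 of 67 loci changed 2-fold, 53 of 67 changed 4-fold and 60 of 66 changed 8-fold, with 18 wrong calls. The simulated libraries all had the same spread at a locus and few loci were changed, unlike in these data. The simulation therefore cannot say what share of 2-fold changes is missed here. Alternatives were other scalings, DESeq2 1.42.0, limma 3.58.1 voom, other filters, other runs of leaf 1 and 2, thinned counts, pairs within the insert limit, flower buds in the fit, a GC and length offset (mgcv 1.9.3) and each library left out. A count of 0 was taken to allow 3 pairs over the group's libraries; no fitted fold is given where a group had 10 pairs or fewer.

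The 44 gene lists, the comparison and its members were chosen with earlier results of these data known, so the lists are described by counts and medians without a test. Named were, in each list, up to 4 called loci with the largest difference in each direction at a mean of at least 1 CPM in the higher group, then the 10 largest called differences each way at 10 CPM or more, the 5 most abundant loci of each library, members not called where a list had at most 5, and all markers of other cells. PSAD1, EPF2, BOA, FKF1, SPX1, PCO2, RD29A, SNZ, SOC1, FLM, SVP, TOE1, CO, AGL24, the SPL genes, SEX1, P5CS1, FAMA as a stomatal gene, VSP2, LOX3, AOS, AOC2, OPR3 and SAG12 were named after their values were seen. Of 830 list entries 11 were left out because the reference gave no matching name or product. Multiplexed runs and flower buds entered the fits only as alternatives. Multiplexed libraries were also used to describe the agreement of libraries and the level of AT1G69140 in leaf 1b.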

Additional observations from a re-analysis of the deposited data

How the results depend on the processing

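The counts of called loci rested most on leaf 3 and 4. Leaving out 1 library at a time, the higher calls ranged from 0 to 6872 and the lower from 0 to 7332, and those past 2-fold from 0 to 4501 and from 0 to 3967; both zeros were without leaf 3 and without leaf 4, where the spread came from leaf 1 and 2 alone. With flower buds in the fit, chosen after seeing the data, 453 higher and 486 lower loci were called without leaf 3 and 261 and 299 without leaf 4, all past 2-fold. The other alternatives kept the counts within 1.5 times, from 2431 (library size alone) to 4293 (DESeq2's Wald test) higher and from 3356 (upper quartile scaling) to 5115 (library size alone) lower. No locus called in both fits had opposite directions in them. The loci themselves changed more than the counts. The fewest called again were 2389 of the 3243 higher loci (library size alone) and 3152 of the 3833 lower loci (GC and length offset). The cause of these shifts was not tested.

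Counts of list members moved by over 1.5 times for several lists beside those given with the results. DESeq2's Wald test called 9 wall genes and 9 Calvin cycle genes higher (4 and 3 above), 8 stomatal, 7 nitrogen and 5 starch breakdown genes higher, and 8 heat and 9 flavonoid genes lower (2 and 4 above). Library size alone called 6 glucosinolate and 7 Calvin cycle genes lower (3 and 3) and 1 starch synthesis gene higher (3). Upper quartile scaling called 3 high-light genes lower (5).

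No paired analysis was possible because leaf 3 and 4 share no replicate number with leaf 1 and 2. The lower depth of leaf 3 and 4 limits loci with few pairs there, and thinning the deeper libraries kept the counts within 1.5 times.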
